A study of Sus scrofa with 33 samples.

Results

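The transcripts of FPGT, CEP85, SEPT8, MAP10, METTL18, RWDD3, RBM12B, BANP, STOX1 and FAM198B, 10 of the 6765 genes that could be named on the array, were followed through 3 biopsies of the right ventricle of the pig. FPGT, CEP85, SEPT8, MAP10, METTL18, RWDD3, RBM12B and BANP (8 genes) were chosen on the size of their fall, in these same arrays, when the pulmonary artery had been constricted for 120 min, among genes that passed the test and were lower in all 11 pigs. How STOX1 and FAM198B (2 genes) were picked is not stated. The changes of all 10 over time are therefore described below without a test. The members came from the platform annotation: a probe set counted where it named 1 of these genes and no other, and each gene was represented by whichever of its probe sets was brightest on average over the arrays. The 10 genes had 18 such probe sets, and the other 8 are described as well.

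RNA came from the free wall of the right ventricle of 11 pigs (Sus scrofa), with 1 array for each of 33 biopsies. Pigs of the shunt arm (6 animals) gave a biopsy before banding (baseline), another once the pulmonary artery had been banded for 120 min, and the last after a further 60 min with a modified Glenn shunt, which leads blood of the superior vena cava into the pulmonary artery past the right ventricle. Pigs of the control arm (5 animals) gave theirs at baseline, at the same 120 min and after 60 min more without the shunt. Both arms had thus been banded alike up to the biopsy at 120 min, and the pigs were assigned to an arm only after it. The sources used here do not give breed, sex or age. No unbanded pigs were biopsied over the same hours, so each change includes everything that elapsed between biopsies, anaesthesia and earlier biopsies among it.

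The 10 proteins belong to unrelated pathways: 2 are enzymes, 3 work on the cytoskeleton, 1 acts in SUMO conjugation, 3 bind RNA or DNA, and 1 sits in the secretory pathway. The level of a transcript reflects synthesis and decay together, and over hours it can only drop as fast as the RNA is degraded or as the cells that hold it are lost. In a piece of tissue such as these biopsies, fewer cells of a type and less RNA per cell cannot be told apart.

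The values are log2 RMA summaries of hybridisation signal, on which a difference of 1 is a 2-fold change. They have no read depth, and the number of arrays limits their precision. Probe sets bind with different strength, so their signals give no order of transcript amounts, and levels are compared within a gene only; a probe set called dim has a low signal, whatever the amount of its transcript. Spiked-in control RNAs, averaged over each pig's arrays and cut into a preset number of 3 sets, grouped the pigs. The sets were shunt pigs 1 to 4, shunt pigs 5 and 6, and the control pigs, so arm and array set cannot be told apart. Each pig was placed as a whole, so whether its own biopsies differed in these controls was not examined. The tissue had the RNA of ventricular muscle: 11 measured cardiomyocyte markers averaged between 10.8 and 14.99, and their mean changed at 120 min by -0.10 ± 0.08 in the shunt arm, against -0.05 ± 0.10 in the control arm (SD over pigs). Of these, PLN alone was called lower, at -0.44 ± 0.09 (SE) over the 11 pigs. Among all probe sets 17.4% were called lower at 120 min and 11.6% higher. Markers of neutrophils and monocytes (7 measured, 3 called higher) changed at 120 min by a mean of 0.61 ± 0.39 in the shunt arm, against 0.07 ± 0.12 in the control arm, and those of smooth muscle and pericytes (6 measured, 2 called higher) by 0.41 ± 0.25 and 0.15 ± 0.27. Lymphocyte markers (6 measured, 2 called lower) changed by -0.06 ± 0.19 in the shunt arm, against -0.20 ± 0.15 in the control arm, and the 3 erythrocyte markers by -0.10 ± 0.37 and -0.87 ± 0.98. The means of the endothelial, fibroblast and adipocyte lists changed by between -0.03 and 0.06 in either arm (SD between 0.08 and 0.18), although single markers went further in either direction, such as CLDN5 at 0.89 and TEK at -0.41 over the 11 pigs. The 4 atrial markers varied widely between pigs, with a mean change of -0.03 ± 0.95 in the shunt arm, against -0.12 ± 1.32 in the control arm. The part that a shift in cell makeup had in the falls below was not tested. The 3′ minus 5′ signal of GAPDH, a measure of RNA integrity, averaged 0.73, 0.71 and 0.72 over the course of the shunt arm, against 0.77, 0.87 and 0.82 in the control arm.

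At 120 min of banding all 10 transcripts were lower than at baseline, with changes between -1.39 and -0.90 log2 units over the 11 pigs, which left between 38.2% and 53.6% of the starting signal. Their median change was -1.04, and that of all 6765 genes was -0.02. FPGT fell by 1.39 ± 0.12 (SE), CEP85 by 1.39 ± 0.16 and STOX1 by 1.32 ± 0.11, the 3 largest falls of any named gene. MAP10 fell by 1.17 ± 0.09, METTL18 by 1.08 ± 0.08, RWDD3 by 0.99 ± 0.11, SEPT8 by 0.98 ± 0.05, RBM12B by 0.96 ± 0.13, BANP by 0.94 ± 0.08 and FAM198B by 0.90 ± 0.12. FAM198B stood at rank 20 among all falls, so the 10 genes made up 10 of the first 20. All 10 were within the 17.4% of probe sets that limma called lower at 120 min, against 11.6% called higher, and for 8 of them this was a condition of the choice. Within pigs, 9 of the 10 were lower in all 11 animals, where 5.88% of probe sets were, which was again a condition for the 8.

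**Figure D1:**
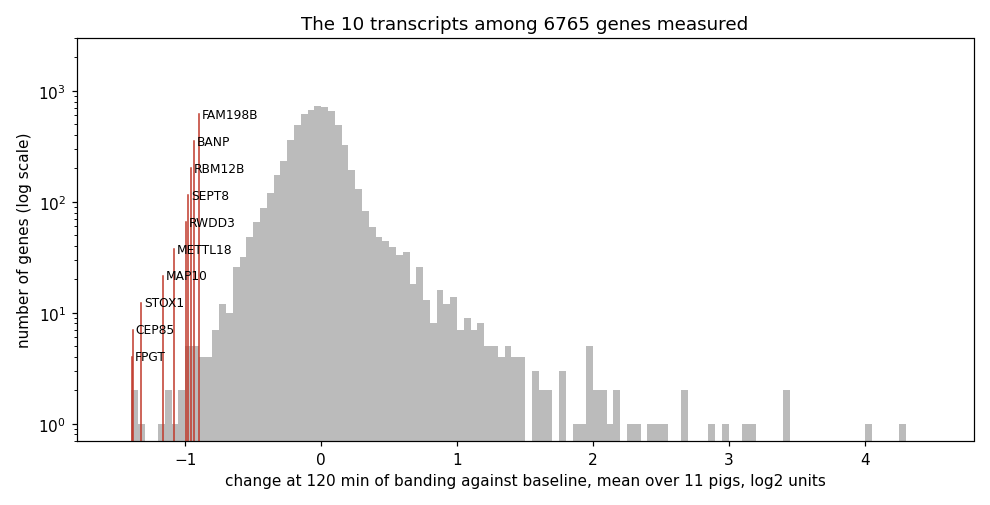
Histogram of the change from baseline to 120 min of banding over 6765 genes (x axis, log2 units, mean over 11 pigs; y axis, number of genes on a log scale), with the 10 transcripts as red lines whose heights carry no value. The 10 lie between -1.39 and -0.90 at the left end, and the right end of the distribution reaches further from 0 than the left.

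FPGT encodes fucose-1-phosphate guanylyltransferase, which makes GDP-fucose from salvaged fucose. In the shunt arm its lowest, median and highest values were 5.76, 6.40 and 6.97 at baseline, 4.23, 4.81 and 5.13 at 120 min, and 3.96, 4.46 and 5.39 at the last biopsy. The 5 control pigs had 6.23, 6.11, 6.04, 6.30 and 6.001 at baseline, then 5.27, 4.99, 4.80, 5.59 and 4.74 at 120 min, and 5.16, 5.26, 4.84, 5.28 and 4.77 at the end. Both arms thus dropped clear of their baseline range by 120 min and stayed clear of it. By 120 min FPGT was 3.18-fold lower than at baseline in the shunt arm, against 2.08-fold lower in the control arm. The smallest change in any pig was -0.71, in control pig 4, and the largest -2.21, in shunt pig 3.

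METTL18, a methyltransferase that in human cells modifies a histidine of the ribosomal protein RPL3, had the lowest, median and highest values of 6.70, 6.97 and 7.19 at baseline in the shunt arm. At 120 min they were 5.47, 5.66 and 5.87, and at the last biopsy 5.19, 5.52 and 6.09. Control pigs had 6.46, 6.87, 6.49, 6.51 and 6.66 at baseline, 5.38, 5.80, 5.80, 6.21 and 5.65 at 120 min, and 5.69, 5.63, 5.57, 5.93 and 6.04 at the end. Neither arm overlapped its baseline afterwards, and the shunt pigs had both the higher start and the longer drop. METTL18 fell by 1.30 ± 0.11 in the shunt arm, and fell by 0.83 ± 0.12 in the control arm at 120 min.

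Of the cytoskeletal genes, CEP85 encodes a protein of the centrosome, the organising centre of microtubules. Its lowest, median and highest values in the shunt arm were 9.70, 9.97 and 10.51 at baseline, 7.51, 8.44 and 8.81 at 120 min, and 7.22, 7.64 and 9.03 at the last biopsy. In control pigs it had 10.32, 9.52, 10.02, 10.05 and 10.16 at baseline, 8.89, 8.45, 9.02, 9.73 and 9.20 at 120 min, and 8.92, 7.93, 8.73, 9.36 and 9.60 at the end. The shunt arm left its baseline range, whereas the control arm overlapped it at both later biopsies, because control pig 4 at 120 min and control pig 5 at the end lay above the lowest baseline value. CEP85 was 3.36-fold lower at 120 min in the shunt arm, against 1.94-fold lower in the control arm, and single pigs ranged between -0.32 and -2.27.

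SEPT8, a septin, is one of the GTP-binding proteins that polymerise into filaments beneath the membrane. It had the most even fall of the 10, with an SD over pigs of 0.23 at 120 min. In the shunt arm its lowest, median and highest values were 8.59, 8.75 and 9.30 at baseline, 7.19, 7.70 and 8.19 at 120 min, and 7.39, 7.56 and 8.13 at the end. The control arm ran between 8.53 and 9.04 at baseline, between 7.75 and 8.22 at 120 min and between 7.58 and 8.08 at the end, and no later biopsy of either arm reached the baseline range. SEPT8 fell by 1.13 ± 0.07 in the shunt arm, and fell by 0.79 ± 0.08 in the control arm.

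MAP10, a protein that binds and stabilises microtubules, had the narrowest level of the 10 at 120 min in the shunt arm (SD 0.08, against 0.26 in the control arm): the 6 shunt pigs lay between 5.04 and 5.27, although they had started between 5.88 and 6.70. Control pigs lay between 4.81 and 5.46 at 120 min, after a start between 6.13 and 6.46. At the last biopsy the values were 4.95 to 5.57 in the shunt arm and 4.83 to 5.51 in the control arm, so neither arm regained its baseline range. MAP10 was also the gene on which the arms were most alike, with changes at 120 min of -1.22 ± 0.12 in the shunt arm, against -1.10 ± 0.13 in the control arm.

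RWDD3, which binds the SUMO-conjugating enzyme and promotes the attachment of SUMO, lay between 7.74 and 8.17 at baseline, 6.41 and 7.17 at 120 min and 6.01 and 7.52 at the end in the shunt arm. In the control arm the ranges were 7.64 to 7.96, 6.43 to 7.21 and 6.73 to 7.19. No later value reached the baseline range of its arm, and the shunt arm spread out most at the last biopsy. The change at 120 min was -1.13 ± 0.15 in the shunt arm, against -0.83 ± 0.16 in the control arm.

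RBM12B, a protein with RNA-recognition motifs, fell unevenly, with changes at 120 min of -0.04 in control pig 4 and -1.71 in shunt pig 4. Shunt pigs ran between 7.48 and 8.04 at baseline, 6.30 and 6.92 at 120 min and 5.89 and 7.10 at the end. Control pigs ran between 7.10 and 7.79 at baseline, 5.99 and 7.21 at 120 min and 6.16 and 7.03 at the end. The control values at 120 min overlapped baseline through the single value of 7.21, that of pig 4, and at the end they no longer did.

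BANP, a nuclear protein that binds DNA at matrix attachment regions and at promoters, had the lowest, median and highest values of 8.10, 8.40 and 9.11 at baseline, 7.02, 7.33 and 7.46 at 120 min, and 6.87, 7.18 and 7.48 at the end in the shunt arm. Control pigs had 7.76, 8.10, 7.73, 8.36 and 7.88 at baseline, 7.29, 7.37, 7.40, 7.61 and 7.31 at 120 min, and 7.17, 7.27, 7.03, 7.53 and 7.29 at the end. Both arms dropped below their baseline ranges. The arms differed more in where BANP started than in where it arrived: the mean was 8.51 in shunt pigs and 7.97 in control pigs at baseline, and 7.27 and 7.39 at 120 min. Its change at 120 min was -1.24 ± 0.11 in the shunt arm, against -0.57 ± 0.12 in the control arm.

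STOX1, a DNA-binding protein with a winged helix domain, showed the same start and arrival to a greater degree and was the dimmest of the 10 probe sets. Its lowest, median and highest values in the shunt arm were 5.36, 5.83 and 6.17 at baseline, 3.41, 4.04 and 4.72 at 120 min, and 3.17, 3.31 and 3.70 at the end. Control pigs had 4.65, 4.52, 5.56, 4.996 and 4.69 at baseline, 4.02, 3.41, 4.06, 5.002 and 4.16 at 120 min, and 3.39, 3.08, 3.87, 4.34 and 3.82 at the end. Control pig 4 was the only pig in which STOX1 was not lower at 120 min (a change of 0.01), and shunt pig 4 had the largest change of any pig and gene listed here, -2.70. STOX1 was 3.48-fold lower at 120 min in the shunt arm, against 1.68-fold lower in the control arm.

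FAM198B, now also called GASK1B, encodes a Golgi-associated protein of a kinase-like family. In the shunt arm its lowest, median and highest values were 9.73, 9.90 and 9.94 at baseline, 8.23, 8.87 and 9.16 at 120 min, and 7.23, 8.12 and 9.02 at the end. Control pigs had 9.58, 10.13, 9.64, 10.04 and 9.32 at baseline, 8.81, 9.17, 8.91, 9.36 and 9.04 at 120 min, and 8.52, 8.70, 8.44, 8.98 and 8.56 at the end. The shunt pigs started close together (SD 0.09) and ended far apart (SD 0.62), while the control pigs overlapped their baseline at 120 min and no longer at the end. FAM198B fell by 1.08 ± 0.16 in the shunt arm, and fell by 0.68 ± 0.17 in the control arm at 120 min.

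**Figure D2:**
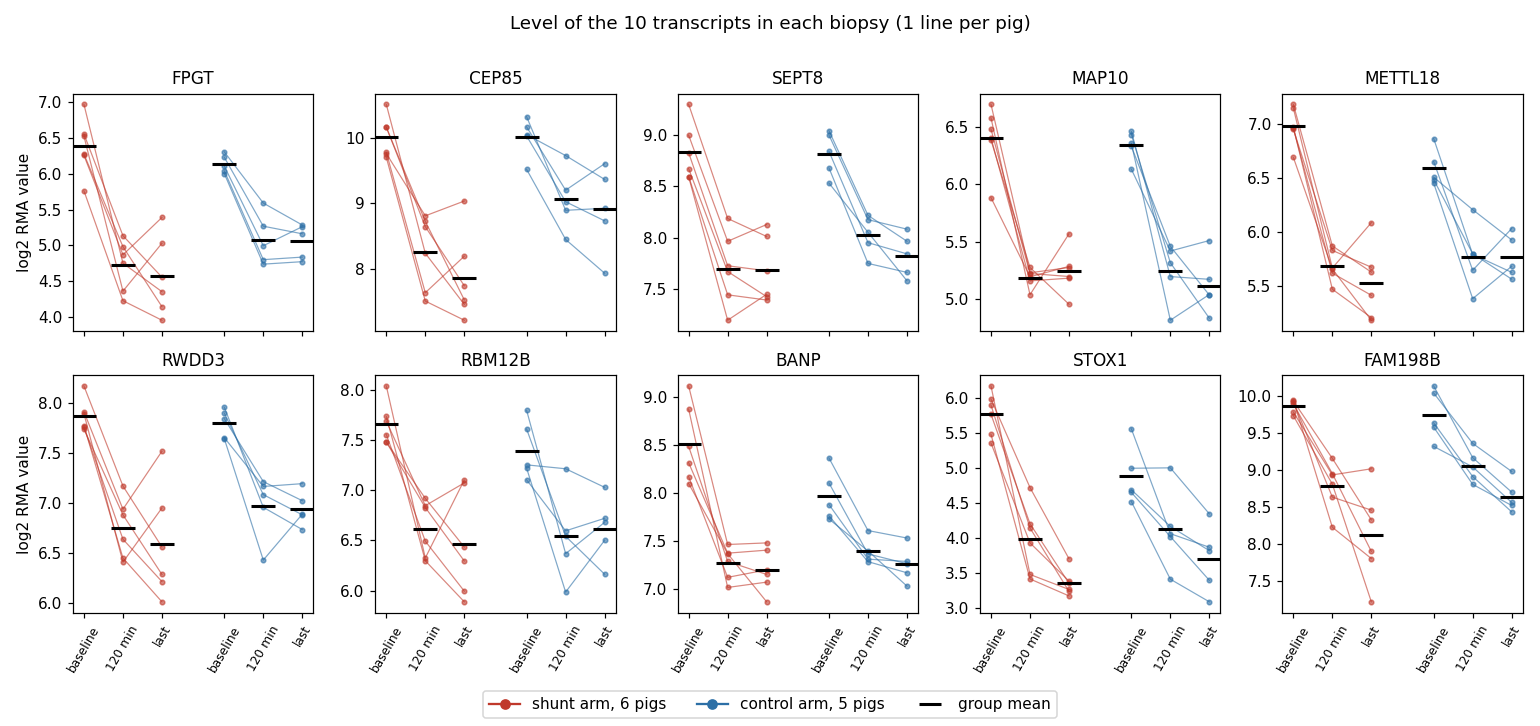
Level of each of the 10 transcripts (y axis, log2 RMA value, a scale of its own in each panel) at the 3 biopsies, with 1 line per pig, red for the shunt arm (6 pigs) and blue for the control arm (5 pigs), and black bars for group means. Most of each drop lay between baseline and 120 min, and STOX1 and FAM198B went on down in both arms.

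Counted over the list, the shunt arm had no overlap between 120 min and baseline for 10 of 10 transcripts, where 5.01% of probe sets were lower without overlap. The control arm had none for 6 of 10 (2.33% of probe sets), the exceptions being CEP85, RBM12B, STOX1 and FAM198B. Between the last biopsy and baseline there was no overlap for 10 of 10 in the shunt arm (4.75% of probe sets) and for 9 of 10 in the control arm (3.45%), where CEP85 overlapped. All 10 were lower at the last biopsy than at baseline in 11 of 11 pigs, as were 8.41% of probe sets. The members were chosen with these arrays, so nothing is read from these counts.

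In the last 60 min most of the transcripts moved little, on average, in either arm. Their median change was -0.15 in the shunt arm, against -0.13 in the control arm. It hung on single animals: in the shunt arm it was -0.31 without pig 4, -0.28 without pig 5, -0.09 without pig 6 and -0.08 without pig 2, and in the control arm -0.07 without pig 2 or without pig 4. The median over all genes was -0.01 for shunt pigs, against 0.00 for control pigs. By 120 min the fall had reached 91.8% of its whole extent for FPGT in the shunt arm, against 98.6% in the control arm. For MAP10 these shares were 105% and 89.9%, for METTL18 89.4% and 100%, and for SEPT8 98.5% and 79.5%, where a share above 100% means that the last value lay above that at 120 min. No transcript was without overlap between the last biopsy and 120 min in either arm.

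STOX1 and FAM198B had the largest further falls of the 10 in both arms. Of the other 8, CEP85 changed by -0.40 ± 0.21 (SE) in the shunt arm and SEPT8 by -0.20 ± 0.08 in the control arm, where SEPT8 was lower in 5 of 5 pigs. In the last 60 min STOX1 changed by -0.63 ± 0.16 (SE) in the shunt arm, against -0.43 ± 0.17 in the control arm. FAM198B changed by -0.66 ± 0.16 in the shunt arm, against -0.42 ± 0.17 in the control arm, so 61.9% of its whole fall in the shunt arm, against 62.1% in the control arm, had taken place by 120 min. STOX1 was lower at the last biopsy than at 120 min in 11 of 11 pigs, the single member of the 10 for which this held, and 0.154% of all probe sets did so. FAM198B was lower in 10 of 11, with a change of 0.08 in shunt pig 5. Per hour, FAM198B fell by 0.66 in the last interval and by 0.54 in the first in the shunt arm, and by 0.42 and 0.34 in the control arm, which made it the only one of the 10 whose rate was higher in the last interval in both arms. These gaps were smaller than the SE of the later changes. Another FAM198B probe set, lower at 120 min in 11 of 11 pigs, had a higher later rate in the shunt arm only. It changed by -0.77 ± 0.15 by 120 min and -0.55 ± 0.15 in the last 60 min there, against -0.70 ± 0.16 and -0.30 ± 0.16 in the control arm. STOX1 changed by -0.63 log2 units per hour in the last interval and by -0.90 in the first in the shunt arm, and by -0.43 and -0.38 in the control arm. These later values are given without a test, since the 120 min arrays took part in the choice of members and the pick of these 2 genes is not explained.

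**Figure D3:**
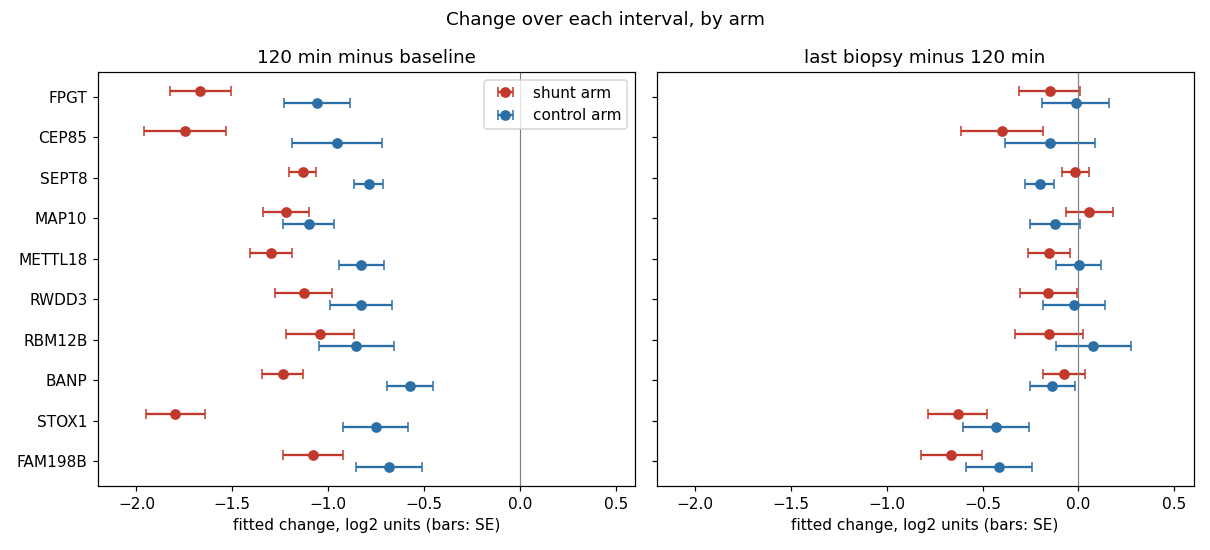
Fitted change of each transcript (x axis, log2 units, bars are SE) from baseline to 120 min on the left and from 120 min to the last biopsy on the right, red for the shunt arm (6 pigs) and blue for the control arm (5 pigs). On the left every point lies below 0, and on the right STOX1 and FAM198B lie between -0.66 and -0.42 while the other 8 lie between -0.40 and 0.08.

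The small averages of the last interval hid opposite courses in single pigs. Averaged over the 10 transcripts, the change in the last 60 min was -0.43, -0.67, -0.27, 0.24, 0.18 and -0.44 in shunt pigs 1 to 6. In pigs 1, 2, 3 and 6 of that arm, 9 of the 10 transcripts were lower at the end than at 120 min, whereas this was so for 3 in shunt pig 4 and for 1, STOX1, in shunt pig 5. The share of all probe sets lower in each pig was not counted. The 10 ran nearly parallel and each biopsy had 1 array, so the transcripts counted in a pig are not separate observations. The control pigs had 0.03, -0.25, -0.19, -0.31 and 0.01, a narrower spread (SD 0.16, against 0.37 in the shunt arm). FPGT shows the divergence, with changes of -0.27, -0.84, -0.40, 0.67, 0.52 and -0.58 in shunt pigs 1 to 6 and of -0.11, 0.27, 0.04, -0.31 and 0.03 in control pigs. The 2 shunt pigs that turned upwards belong to different array sets. At 120 min the mean over the 10 was -1.39, -1.06, -1.56, -1.65, -1.13 and -1.21 in shunt pigs and -1.03, -1.01, -0.95, -0.51 and -0.71 in control pigs, so that every shunt pig had fallen further than every control pig before any shunt was placed.

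**Figure D4:**
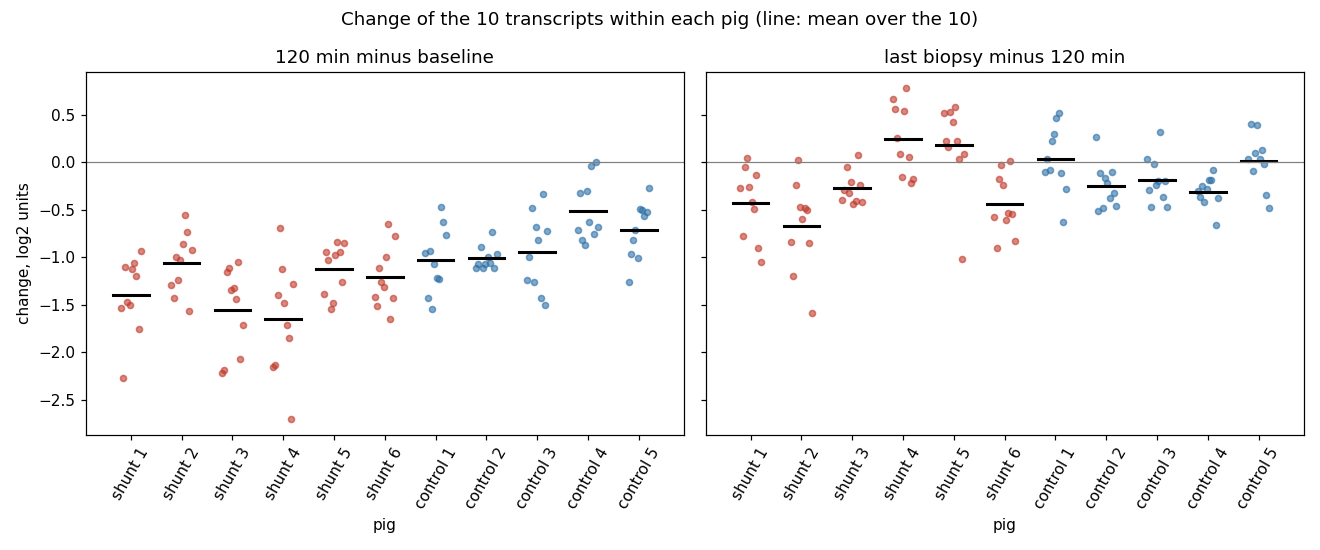
Change of the 10 transcripts within each pig (y axis, log2 units; 1 point per transcript, black line for their mean), from baseline to 120 min on the left and from 120 min to the last biopsy on the right, red for shunt pigs and blue for control pigs. The means on the left lie between -1.65 and -1.06 in shunt pigs and between -1.03 and -0.51 in control pigs, and on the right shunt pigs 4 and 5 lie highest, at 0.24 and 0.18.

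Over the whole course the changes ranged between -2.43 and -1.15 log2 units in the shunt arm, against -1.23 to -0.71 in the control arm. STOX1 fell furthest in the shunt arm, with a change of -2.43 ± 0.16, which left 18.6% of its baseline signal. Its last values there, 3.17 to 3.70, were among the dim signals of the array, where background makes up more of the signal, so this share and the rank are approximate. CEP85 was left with 22.6% there, FPGT with 28.4% and FAM198B with 29.9%, and these 4 were the 4 largest falls of all named genes in that arm. In the control arm MAP10 fell furthest of the 10, by 1.23 ± 0.13 to 42.8% of baseline and rank 3 among all genes, and STOX1 (44.1%) and CEP85 (46.6%) followed.

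The arms were then compared, which asks whether the course of these transcripts differed between pigs that received the shunt and pigs that did not. The condition that the 8 genes fell in all 11 pigs at 120 min bears on how far the arms can differ in that change, so the arm differences at 120 min are described without a test. The last 60 min, the whole course and the baseline were tested for the 8 with limma, adjusted over 23999 probe sets. These contrasts share baseline or 120 min arrays with the choice and are not fully independent of it. In the last 60 min, the interval that differed in treatment, 0 of 8 differed between arms (0% of all probe sets were called). An unadjusted p under 0.05 was found for 0 of the 8 and for 3.07% of all probe sets. The differences, shunt minus control, ran between -0.25 ± 0.32 for CEP85 and 0.19 ± 0.10 for SEPT8. Their 95% confidence intervals, such as -0.62 to 0.35 for FPGT and -0.27 to 0.39 for BANP, include differences in either direction, so a like course in the arms is not shown.

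At 120 min, before the treatments parted, all 10 transcripts, by their brightest probe sets, had fallen further in the arm that was to receive the shunt. The median of the 10 differences, shunt minus control, was -0.43, against -0.01 over all genes, which were not chosen for a fall. The 10 ran nearly parallel within pigs, so they are not 10 separate observations. STOX1 had a difference of -1.04 ± 0.23 (SE), CEP85 of -0.79 ± 0.32, BANP of -0.66 ± 0.16, FPGT of -0.61 ± 0.24, METTL18 of -0.47 ± 0.16, FAM198B of -0.40 ± 0.23 and SEPT8 of -0.34 ± 0.10. RWDD3 had a difference of -0.30 ± 0.22, RBM12B of -0.19 ± 0.26 and MAP10 of -0.12 ± 0.18. The 95% confidence intervals of RWDD3, RBM12B, MAP10 (-0.49 to 0.25) and FAM198B (-0.88 to 0.09) included differences in either direction. The other probe sets of these genes did not all share this. There the difference was 0.05 ± 0.16 for SEPT8, 0.25 ± 0.15 for a FAM198B set and -0.47 ± 0.33 for CEP85. The rest, that of FPGT (-0.08 ± 0.15) among them, lay between -0.14 and -0.02. The mean over the 10 transcripts fell by 1.34 ± 0.24 in shunt pigs and by 0.84 ± 0.22 in control pigs (SD, n = 6 and 5). The median change of the 10 at 120 min came to -1.21 for shunt pigs 1 to 4, -1.26 for pigs 5 and 6 of that arm and -0.83 for the control pigs. All control pigs formed an array set of their own, so this split does not separate arm from array set.

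Over the whole course, by the brightest probe sets, the shunt arm was again the lower one for 9 of the 10. The median difference was -0.61 (-0.01 over all genes), and MAP10 was the exception at 0.06 ± 0.18. The second probe set of SEPT8 differed by 0.20 ± 0.16, that of FPGT by -0.07 ± 0.15 and that of CEP85 by -0.44 ± 0.33. In limma 0 of 8 passed, where 0.00417% of all probe sets, a single one, was called. An unadjusted p under 0.05 was found for 4 of the 8 and for 12.2% of all probe sets. METTL18 differed by -0.63 ± 0.16 (adjusted p = 0.142), BANP by -0.60 ± 0.16 (adjusted p = 0.147), CEP85 by -1.04 ± 0.32 (adjusted p = 0.186) and FPGT by -0.74 ± 0.24 (adjusted p = 0.204). The count depended on the fit and on 1 animal. With limma's array weights and all 11 pigs, METTL18 alone passed (-0.68 ± 0.15, adjusted p = 0.0394). Each pig was left out in turn. Without shunt pig 5, in which the mean fall of the 10 was the smallest of its arm (-0.95), 3 of the 8 passed. CEP85 then differed by -1.33 ± 0.27 (adjusted p = 0.0383), METTL18 by -0.70 ± 0.15 (adjusted p = 0.0422) and FPGT by -0.93 ± 0.21 (adjusted p = 0.0494), while 0.492% of all probe sets were called. The difference had arisen by 120 min for the most part, since the mean over the 10 changed in the last 60 min by -0.23 ± 0.37 in shunt pigs and -0.14 ± 0.16 in control pigs (SD). The choice of the 8 on their fall at 120 min thus bears on the whole-course p-values too. No conclusion is drawn from the genes that passed.

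The arms also differed in where some transcripts started. On the baseline arrays 0 of 8 passed (0.0208% of probe sets did), and 2 of the 8 had an unadjusted p under 0.05, as had 11.8% of all probe sets. METTL18 was higher in the shunt pigs by 0.39 ± 0.10 (adjusted p = 0.198) and BANP by 0.54 ± 0.18 (adjusted p = 0.284), and STOX1, untested, by 0.89 ± 0.19. CEP85 and SEPT8 had baseline differences smaller than their errors in their brightest probe sets, of -0.00 ± 0.17 and 0.01 ± 0.14. The second CEP85 probe set also did, at -0.19 ± 0.21. The second SEPT8 probe set, untested, differed by -0.58 ± 0.10 and was thus lower in the shunt pigs. METTL18 and BANP, the pair with the smallest adjusted p for the whole course, also had the largest baseline differences, shunt above control, among the 8. The whole-course difference subtracts these same baseline arrays, so the match arises in part by arithmetic and nothing is read from it. At 120 min the level of METTL18 was 5.69 ± 0.15 in shunt pigs and 5.77 ± 0.30 in control pigs (SD).

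The remaining 8 probe sets of these genes did not all follow. The other CEP85 probe set changed by -1.02 ± 0.16 at 120 min (SE) and was lower in 11 of 11 pigs, and a FAM198B probe set changed by -0.74 ± 0.11, also in 11 of 11. The further FAM198B probe sets changed by -0.29 ± 0.08 (lower in 8 of 11 pigs) and 0.16 ± 0.06 (lower in 4 of 11). The other probe set of FPGT changed by -0.31 ± 0.07 (10 of 11 pigs) and that of SEPT8 by -0.22 ± 0.08 (8 of 11). For MAP10 and RBM12B the other probe set showed no fall, with changes of 0.02 ± 0.05 (4 of 11 lower) and 0.17 ± 0.07 (2 of 11). The ones with a change above 0 were dim: those of MAP10, RBM12B and FAM198B stood at percentiles 1.89, 13.2 and 13.5 of mean signal among all probe sets, and the second FPGT set at 13.3. METTL18, RWDD3, BANP and STOX1 (4 genes) had a single probe set, so their falls rest on it alone. Which transcripts the probe sets of a gene read was not examined here.

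The 10 transcripts ran nearly parallel within pigs. After each pig's mean was taken off, the 45 pairs among them correlated over the 33 arrays with a median r of 0.924, between 0.830 and 0.969, as a list chosen for 1 shared step must. RWDD3 followed the mean of the other 9 most closely (r = 0.977) and MAP10 least (r = 0.921). Of the genes outside the list, the 8 closest to its mean profile were BAZ1B (r = 0.983), TMEM68 (0.977), CTCF (0.975), FAIM (0.971), CASP2 (0.969), KCNJ8 (0.968), ACP2 (0.967) and GTF2I (0.963). These arrays share pigs, biopsy times and array sets, so the correlations describe the profiles and carry no test. BAZ1B, a subunit of chromatin-remodelling complexes, changed by only -0.56 ± 0.05 at 120 min, and CTCF, the insulator-binding zinc finger protein, by -0.58 ± 0.06: the likeness is one of shape and not of size. FAIM, an inhibitor of Fas-induced apoptosis, changed by -1.05 ± 0.12, and TMEM68 by -0.89 ± 0.07. All 8 were lower at 120 min in 11 of 11 pigs. Over the whole course all 8 also changed further in the shunt arm, so this trait was not particular to the list. BAZ1B changed by -0.83 there, against -0.49 in the control arm, and GTF2I by -1.01, against -0.57. The 8 were picked for a like profile over the same arrays, so this too is a description.

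Relatives and partners of the 10 are set against all probe sets, since most of the 10 were chosen on the size of their fall. Of 96 such genes in 10 lists, 23 were called lower at 120 min (24.0%, against 17.4% of all probe sets) and 11 higher (11.6% of all probe sets were), with a median change of -0.02 and a range of -0.71 to 0.85. The 96 were read by the brightest probe set of each gene, whereas the shares cover every probe set, so they are not fully alike. Of 14 genes of GDP-fucose synthesis and fucosyltransfer, FUT1, a fucosyltransferase, fell by 0.28 ± 0.09 (adjusted p = 0.0136) and PMM2, a phosphomannomutase that feeds GDP-mannose, rose by 0.19 ± 0.07 (adjusted p = 0.0297). MPI, which supplies mannose 6-phosphate, changed by -0.19 ± 0.07 and did not pass (adjusted p = 0.0560). Of 6 septins, SEPT7 fell by 0.37 ± 0.06 (adjusted p = 2.75e-05) and SEPT4 by 0.34 ± 0.07 (adjusted p = 0.00101), while SEPT6, at -0.23 ± 0.09, did not pass (adjusted p = 0.0513).

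None of the 6 centrosome genes passed, CEP55 (-0.18 ± 0.07), CEP192 (0.12 ± 0.05) and the kinase NEK2 (-0.11 ± 0.06) being nearest to it. Of 11 microtubule-associated genes 2 were lower and 2 higher: the plus-end protein MAPRE1 rose by 0.61 ± 0.08 (adjusted p = 3.72e-06), MAP1A rose by 0.29 ± 0.08 and MAP7D1 fell by 0.29 ± 0.06. Among 14 methyltransferase-like genes 5 were lower and 1 higher. METTL14, a subunit of the enzyme that writes N6-methyladenosine on RNA, fell by 0.63 ± 0.08 (adjusted p = 2.65e-06), METTL5 by 0.39 ± 0.06 and METTL8 by 0.54 ± 0.11, each in 11 of 11 pigs. Of 8 genes of the SUMO pathway 3 were lower and 1 higher, all by little: the modifiers SUMO2 and SUMO3 fell by 0.17 ± 0.05 and 0.18 ± 0.06, and the SUMO protease SENP5 rose by 0.21 ± 0.05.

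The 16 genes of RNA-binding motif proteins divided evenly, with 4 lower and 4 higher. RBM3, a cold-inducible protein, rose by 0.85 ± 0.06 (adjusted p = 1.53e-09), RBM23 rose by 0.40 ± 0.06 and RBM48 fell by 0.71 ± 0.10 (adjusted p = 5.76e-06). Among 8 genes of matrix attachment and BANP partners 4 were lower and 1 higher, with CTCF falling most, HDAC1, a histone deacetylase, lower by 0.23 ± 0.05 and HMGA1, an architectural chromatin protein, higher by 0.43 ± 0.10. None of the 10 forkhead factors, the larger winged helix family, passed: FOXM1 changed by 0.14 ± 0.06, FOXO3 by 0.12 ± 0.06 and FOXL2 by 0.11 ± 0.06. The 3 measured relatives of FAM198B all passed, PKDCC higher by 0.50 ± 0.08 and FAM69B and FAM69A lower by 0.31 ± 0.07 and 0.39 ± 0.10.

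**Figure D5:**
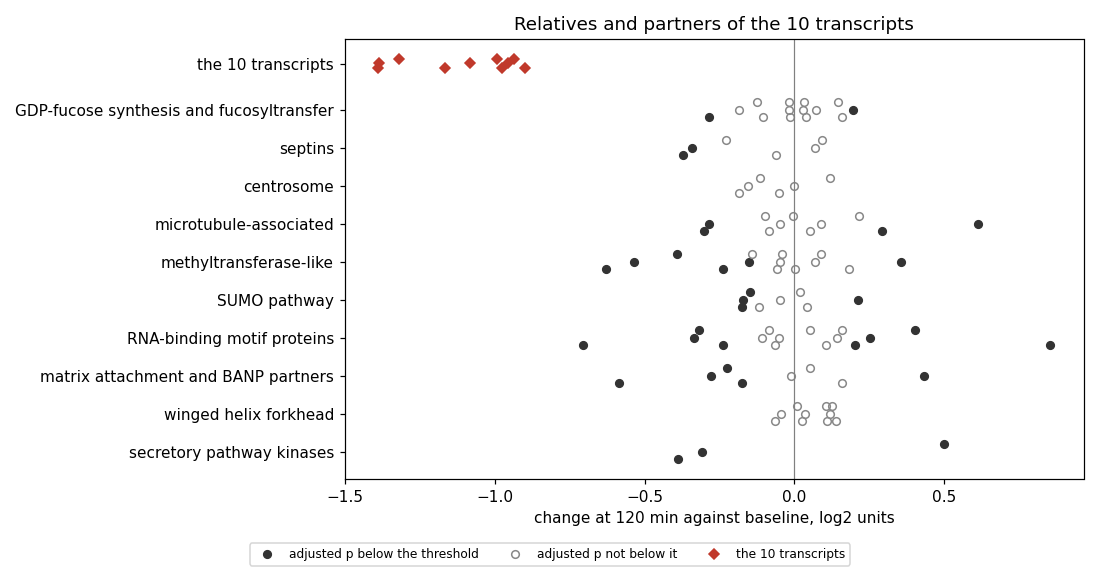
Change at 120 min against baseline (x axis, log2 units, mean over 11 pigs) of the 10 transcripts (red diamonds) and of 96 relatives or partners in 10 lists, filled where limma's adjusted p was below 0.05 and open where it was not. The relatives lie between -0.71 and 0.85, to the right of all 10 transcripts, most of which were chosen on the size of their fall.

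Genes next to the 10 on the chromosome were looked up after the values had been seen, by order in RefSeq's annotation of the pig. Of 20 neighbours 6 were measured, of which 3 were lower at 120 min (17.4% of all probe sets were) and 0 higher (11.6%). These shares again cover every probe set, and not only the brightest of each gene. NTPCR beside MAP10 fell by 0.28 ± 0.07 (adjusted p = 0.00228), FAM92A beside RBM12B by 0.35 ± 0.09 (adjusted p = 0.00344) and DDX50 beside STOX1 by 0.32 ± 0.07 (adjusted p = 0.00108), each in 10 of 11 pigs. LRRIQ3 beside FPGT changed by -0.18 ± 0.07 (adjusted p = 0.0555), SH3BGRL3 beside CEP85 by -0.12 ± 0.09 and TMEM144 beside FAM198B by 0.01 ± 0.09, none of which passed.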

How the data were processed

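The values are on a log2 scale and were deposited by the authors as probe set summaries computed with RMA, per the submitters' processing notes, from Affymetrix porcine arrays hybridised with biotinylated cRNA. RMA corrects background, quantile normalises the arrays and summarises probes, so levels are relative. The sources used here name neither the RMA software nor the arrays normalised jointly. Values ran between 2.21 and 15.2, with array medians of 6.10 to 6.17, and were used as deposited. All columns were matched to a sample.

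Of 24123 probe sets, 124 controls were left out and 23999 tested. The annotation gave 10069 a single symbol, which made 6765 genes. Changes were estimated with limma 3.58.1 in R 4.3.3 (lmFit and eBayes) on the 33 arrays, with pig as a fixed block and coefficients for each arm and biopsy (18 residual degrees of freedom). Baselines were compared on the 11 baseline arrays. Tests were two-sided, with Benjamini-Hochberg adjustment over the 23999 and a threshold of 0.05. The pairing comes from the labels, which name the pig. Arrays of the same pig correlated, after removal of group means, with a median r of 0.395 (lowest 0.081), those of other pigs with -0.05. The fit was tested on simulated data.

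The members and lists were chosen with earlier results of these data known. By rule the text names all 10 members, up to 3 genes of each family list by smallest p, and the 8 genes closest in profile. The lists were GDP-fucose synthesis, septins, centrosome, microtubule-associated, methyltransferase-like, SUMO, RNA-binding motif, matrix attachment, forkhead and secretory kinases, members left out. Alternatives were median centring, quantile normalisation, no block, pig as a random block (statmod 1.5.0), an intensity trend, a filter of the dimmest 30%, array weights, the mean of a gene's probe sets, single array sets and each pig left out. Those on the family lists were added after seeing the data. Nothing in the labels beyond the pig says how biopsies were replicated, so pigs were the replicates. Each SE of a change came from the limma fit, which pools the residual spread over both arms and all biopsies. It is thus the same for every interval of an arm, however far its pigs spread. For FPGT in the last interval it was 0.16 in the shunt arm, where pigs changed by -0.84 to 0.67. It was 0.17 in the control arm, where pigs changed by -0.31 to 0.27. The SE and confidence intervals can therefore be too narrow for the last interval of the shunt arm. Sequences were not used here.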

Additional observations from a re-analysis of the deposited data

Results flagged for a closer look

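Single pigs stood far from the rest of their arm in 5 of 120 groups of values that were checked, by Dixon's criterion at the 95% level, and chance alone would pick out about 1 in 20 groups. All 5 were groups of within-pig changes, which made up only a part of the 120. In shunt pig 5 SEPT8 changed over the whole course by -0.87, the smallest fall of its arm, and METTL18 changed in the last 60 min by 0.42, the only rise of its arm. In control pig 3 SEPT8 changed at 120 min by -0.48, the smallest fall of its arm, and BANP changed in the last 60 min by -0.37, the largest of its arm. BANP changed in the last 60 min by -0.50 in shunt pig 2, where the other shunt pigs had between -0.13 and 0.08.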

How the results depend on the processing

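One median changed its direction: the arm difference in the last 60 min over the 8 tested genes, -0.13 and not called, was 0.05 with shunt pigs 5 and 6 alone against the control arm. No other result listed here did so under the alternatives run. The median change of the 10 transcripts at 120 min, -1.04, lay between -1.26 and -0.83 over 22 alternatives, and between -1.11 and -1.01 with each pig left out. Leaving out each pig gave -0.31 to -0.08 for the last 60 min in the shunt arm, -0.17 to -0.07 in the control arm, -1.498 to -1.34 for the whole course in the shunt arm and -1.03 to -0.99 in the control arm. With the mean of a gene's probe sets in place of the brightest one, the whole-course median in the control arm was -0.70, and 15 single-member values moved by more than the spread between pigs while 612 did not. All but 1 of the 15 came under this choice, and the exception was CEP85 at 120 min in shunt pigs 1 to 4 alone, -2.01.

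The number of the 8 genes called different between arms was 0 at baseline and in the last 60 min under every alternative run. For the whole course it was 0 to 3 with each pig left out, the 3 without shunt pig 5, and 1 with array weights (METTL18, adjusted p = 0.0394, with 0.788% of probe sets called). With pig left out of the fit (no replicate block) 15 family genes were called lower, against 23 with the pairing, and the pairing changed no other call or median listed here. Over pigs left out, 19 to 24 family genes were lower and 10 to 12 higher. STOX1 was among the dimmest 30% of probe sets and was lost under that filter, so 9 transcripts remained.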
